A study of Drosophila melanogaster with 30 samples.

Results

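The 7 genes described here pattern the veins of the Drosophila wing: kni, knrl, vn, ara, caup, mirr and bs. They were chosen by name from 8846 genes that could be identified in both RNA comparisons of the series. Each was taken as the deposited interval that best matched its RefSeq gene, with a reciprocal overlap above 0.9, and all 7 had such an interval in both sexes. Of the 7 genes, 6 lie on chromosome arm 3L and 1, bs, lies on 2R. The tissue was the wing imaginal disc of wandering third-instar Drosophila melanogaster larvae, the epithelium that forms the adult wing and the notum. RNA was sequenced from H4K16R and HWT discs of males and females, as 3 libraries of 30 pooled discs for each group. Larvae of these genotypes, and of H3K9R, lacked the endogenous cluster of replication-dependent histone genes (ΔHisC) and carried twi-GAL4 and UAS-2xEYFP, which drive the fluorescent marker used to pick them. Histones came from a transgene of 12 repeats of 5 kb each, with lysine 16 of histone H4 changed to arginine in H4K16R and wild-type histone genes in HWT. Replication timing was measured as the ratio of S-phase to G1 DNA coverage (S/G1), where a higher value means earlier replication. It was measured in H4K16R and HWT discs of both sexes, in H3K9R females, whose transgene has lysine 9 of histone H3 changed to arginine, and in yw females, a strain with its endogenous histone genes in place, with 2 S-phase libraries and 1 G1 library per group.

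A vein forms where signalling through the epidermal growth factor receptor (EGFR) stays high, and the intervein cells between veins keep that signal low. Kni and Knrl, which are related zinc-finger transcription factors of the nuclear receptor class, position the second longitudinal vein. Ara and Caup, homeodomain factors of the Iroquois complex, act in the primordia of other longitudinal veins. Vn is a neuregulin-like EGFR ligand, and Bs, the Drosophila serum response factor, is required for intervein fate. Several of the genes are also used outside the veins: the Iroquois genes in the notum, and kni and knrl in the trachea.

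The deposited RNA files hold the authors' own edgeR comparisons, 1 table per sex; each interval has its log2 fold change with an adjusted p-value, but no level and no value per library. Levels of the genes, the spread between libraries and sequencing depth are therefore unknown here, and a gene's own expression cannot be ranked against another's. Standard errors and 95% intervals were recovered from the fold changes and adjusted p-values. Which genotype is the numerator is not stated in the tables and was read as H4K16R over HWT, so every direction rests on that reading. The median log2 fold change over the large autosomes 2 and 3, where all 7 genes lie, was 0.08 in males and -0.004 in females per the authors' deposited tables, and that of X-linked intervals was -0.43 in males. Genes used to mark the disc epithelium were present in the tables, with 9 of 10 measured in males and 10 of 10 in females. A lower RNA level per cell and fewer cells that express a gene cannot be told apart in whole discs.

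Both genes of the kni and knrl pair were lower in H4K16R than in HWT discs of males. The authors' deposited table of males shows that kni (3L:20692330-20695378, dm6) fell by 0.37 in log2 terms (edgeR, adjusted p = 0.046), which is 0.774 of its HWT level with a recovered interval of 0.643 to 0.933. It also shows that knrl (3L:20597141-20620659) decreased by 0.35 in log2 terms (edgeR, adjusted p = 0.020 in the authors' deposited table), which is 0.782 of its HWT level with a recovered interval of 0.668 to 0.916. The pair thus had about the same change in males, although knrl spans 23.5 kb and kni 3.05 kb. Among autosomal entries of the authors' deposited male table, 11.3% had a lower fold change than kni and 11.8% a lower one than knrl. These were the only 2 of the 7 genes called in males, and both were lower. Called lower were 10.3% of all male entries and 3.39% of autosomal ones, and 5.35% of all male entries were called higher, per the authors' deposited table. The 7 genes were picked with earlier results of these data known, so their count is a description.

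In females the same pair had positive values that did not pass. The authors' deposited table of females gave kni a log2 fold change of 0.12 (adjusted p = 0.78 by edgeR, recovered interval -0.12 to 0.36). It gave knrl 0.16 (adjusted p = 0.62 by edgeR, recovered interval -0.05 to 0.37) per the authors' deposited table. The difference between the sexes was tested by a z test over 8846 genes, of which 7.87% passed an adjusted p of 0.05; among autosomal genes 1.58% passed with the lower effect in males. For knrl the male minus female effect was -0.51 on the log2 scale, with an interval of -0.83 to -0.20, and it passed (adjusted p = 0.024, Benjamini-Hochberg). For kni it was -0.49, with an interval of -0.85 to -0.13, and it did not pass (adjusted p = 0.074). With the autosomal median of each sex subtracted, the difference for kni was -0.57 and passed (adjusted p = 0.023).

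**Figure D1:**
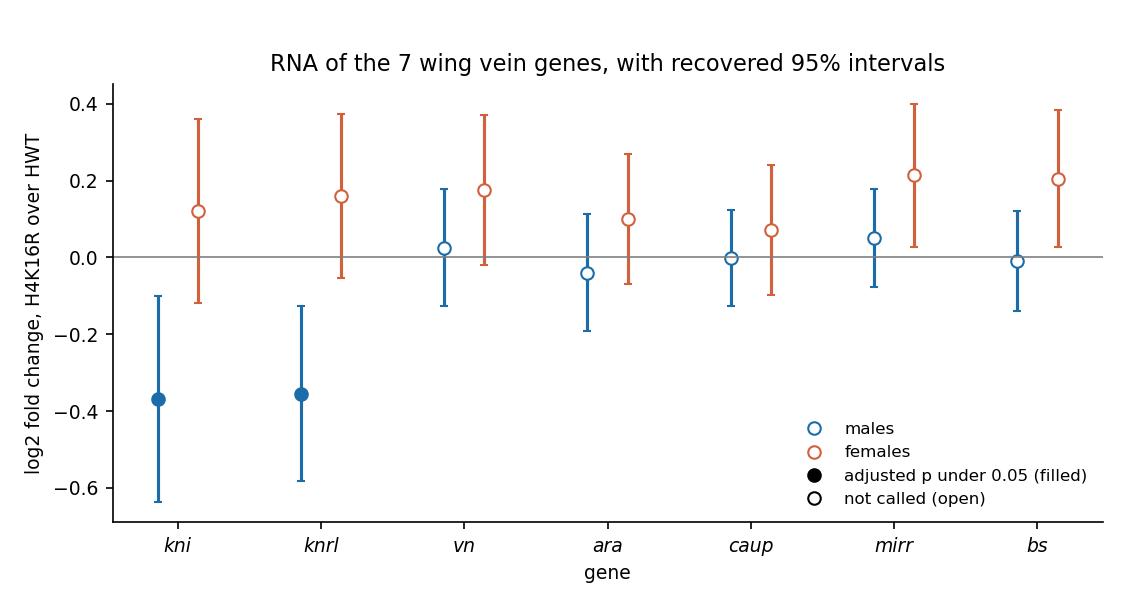
Log2 fold change of H4K16R over HWT (vertical axis) for the 7 wing vein genes (horizontal axis), with males left of females and bars for the recovered 95% intervals. Filled points have an adjusted p under 0.05 per the authors' deposited tables: kni at -0.37 and knrl at -0.35 in males are the only filled points.

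Markers of the trachea, where kni and knrl are also active, were examined beside the pair. Lower in H4K16R males were 2 of 9 measured tracheal markers, with 0 higher, per the authors' deposited table, beside 10.3% of all male entries lower. Their median log2 fold change was -0.09. The 2 were the chitin synthase gene kkv (-0.28, adjusted p = 0.015) and the X-linked chitin-binding gene obst-A (-1.30, adjusted p = 1.35e-07) per the authors' deposited table, in which 44.6% of X-linked male entries were lower. The tracheal selector gene trh, on 3L, had 0.17 (adjusted p = 0.16) per the authors' deposited table of males. In females 0 of 9 tracheal markers passed, and their median was 0.02 per the authors' deposited table. The part of tracheal cells in the kni and knrl values was not tested.

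The ligand gene vn (3L:5813338-5845664, dm6) had small values in both sexes. Its log2 fold change per the authors' deposited tables was 0.03 in males (adjusted p = 0.87 by edgeR) and 0.18 in females (adjusted p = 0.50 by edgeR). The recovered intervals ran from -0.13 to 0.18 in males and from -0.02 to 0.37 in females, so a male change as large as that of knrl lies outside the male interval. The neighbouring spindle checkpoint gene mad2, 245 bases away, had -0.03 in males and 0.37 in females per the authors' deposited tables, with adjusted p of 0.92 and 0.35.

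The 3 Iroquois genes stayed close to 0 in males. For males, per the authors' deposited table, ara (3L:12580672-12596018, dm6) had a log2 fold change of -0.04, caup (3L:12609631-12621798) -0.001 and mirr (3L:12693639-12710249) 0.05, with adjusted p of 0.79, 0.99 and 0.67 by edgeR. Their recovered intervals in males together ran from -0.19 to 0.18, narrow enough to leave out the male values of kni and knrl. For females, per the authors' deposited table, ara had 0.10, caup 0.07 and mirr 0.21, with adjusted p of 0.72, 0.82 and 0.33 by edgeR. Of these, mirr was one of 2 vein genes with an unadjusted p under 0.05 in females.

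The intervein gene bs (2R:24342861-24376473, dm6) was the other. Its log2 fold change was -0.009 in males (adjusted p = 0.95 by edgeR) and 0.21 in females (adjusted p = 0.32 by edgeR) per the authors' deposited tables. The male minus female difference was -0.21, with an interval of -0.43 to 0.006 (adjusted p = 0.26). An antisense RNA, asRNA:bsAS, lies inside the gene and had 0.01 in males (adjusted p = 0.95) and 0.22 in females (adjusted p = 0.32), close to the values of bs itself, per the authors' deposited tables. The libraries were strand-specific, but whether counting used the strand is not given in the sources used, so bs and its antisense RNA are uncertain as separate values. Counting that RNA, 8 further male and 9 further female intervals overlapped bs, and 0 of them were called per the authors' deposited tables.

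Taken as a set, the 7 genes had a median log2 fold change of -0.009 in males and 0.16 in females, against 0.02 and -0.003 over all entries of the authors' deposited tables. Over autosomal entries, where all 7 genes lie, the medians were 0.08 and -0.004. In males 2 of the 7 values lay above 0, where 60.5% of autosomal entries did. In females all 7 values lay above 0, where 49.5% of all female entries did, and 0 were called by edgeR, beside a share of 0.974% of female entries called. Called lower were 0.613% of all female entries and 0.591% of autosomal ones. At a recovered unadjusted p under 0.05, 2 of the 7 passed in males, beside 26.9% of all male entries, and 2 of the 7 in females, beside 11.6% of all female entries. Of autosomal entries, 20.7% passed in males and 11.6% in females. The recovered standard errors ran from 0.064 to 0.14 in males and from 0.086 to 0.12 in females. The p-values measure the spread between libraries, which the labels do not tie to separate crosses.

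The paired neighbours had similar values within each sex. The kni minus knrl difference in log2 fold change was -0.01 in males and -0.04 in females. Of the 6188 non-overlapping neighbouring gene pairs on the autosomes in the male table, 2.57% differed by less than kni and knrl did, and the median absolute difference was 0.35. In females 8.76% of 5956 such pairs differed by less, around a median of 0.27. The recovered standard errors of kni and knrl exceed these differences, at 0.14 and 0.12 in males and 0.12 and 0.11 in females. The 2 genes lie 71.7 kb apart, with 1 measured entry between them in males, CG13251 at 0.87 (adjusted p = 0.75) per the authors' deposited table, and 0 in females. Because of that entry, kni and knrl are not themselves among the 6188 male pairs. The ara minus caup difference was -0.04 in males and 0.03 in females, smaller than in all but 6.69% and 6.11% of neighbouring pairs. Both differences are also smaller than either gene's recovered standard error in that sex. These 2 genes lie 13.6 kb apart. The third Iroquois gene, 71.8 kb from caup, gave a caup minus mirr difference of -0.05 in males and -0.14 in females. Members of each pair are paralogues and share libraries, how reads that match both were counted is not given in the sources used, and the closeness of a pair was not tested.

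With both directions pooled, other genes of the vein pathways were called at shares near those of all entries in each sex. In males the lower calls were a larger share than the 10.3% of all entries. The higher calls were a smaller share than the 5.35% of all male entries. Over 6 lists of 99 measured genes, without the genes described above, H4K16R males had 15 lower and 3 higher per the authors' deposited table, and 18.2% were called, beside 15.6% of all male entries. Of the 15 lower genes, 9 were among the 16 on the X and 6 among the 83 on autosomes; among all male entries, 44.6% of X-linked and 3.39% of autosomal ones were lower, per the authors' deposited table. In females 1 of 99 was called, higher, beside 0.974% of all female entries, per the authors' deposited table. The lists' genes were chosen with earlier results of these data known.

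The list of other vein transcription factors and crossvein genes also holds selector genes such as ap and sd, which are disc epithelium markers below. It included 3 autosomal genes that were lower in males. The list had 4 lower and 0 higher of 14 in males, with a median of -0.09 per the authors' deposited table, where 10.3% of all male entries and 3.39% of autosomal ones were lower. They were ab, a zinc-finger vein factor (-0.36, adjusted p = 0.013), px, which restricts extra veins (-0.33, adjusted p = 0.0040), the dorsal selector ap (-0.26, adjusted p = 0.011) and the X-linked wing selector sd (-0.33, adjusted p = 0.0015) per the authors' deposited table. For males, per the authors' deposited table, salm and salr, zinc-finger genes that act upstream of kni, had -0.04 and -0.01, with adjusted p of 0.71 and 0.92. In females 0 of the 14 passed, and 11 lay above 0 per the authors' deposited table.

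Of 19 EGFR pathway genes measured in males, 2 were lower and 1 higher per the authors' deposited table, with a median of -0.04. Over all male entries 10.3% were lower and 5.35% higher, and of X-linked ones 44.6% were lower. The kinase gene Raf (-0.62, adjusted p = 4.83e-04) and the phosphatase gene csw (-0.40, adjusted p = 6.24e-04), both X-linked, were lower, and the adaptor gene dos (0.30, adjusted p = 0.047) was higher, per the authors' deposited table. The receptor gene Egfr had -0.08 (adjusted p = 0.48), the pathway's transcriptional effector pnt -0.18 (adjusted p = 0.21), and its feedback inhibitor aos, also a target in veins, 0.18 (adjusted p = 0.28) per the authors' deposited table of males. In females 0 of 20 passed, with a median of 0.03 per the authors' deposited table.

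Of 20 Notch pathway genes, which set the vein borders, 2 were lower in males per the authors' deposited table: the coactivator gene mam on 2R (-0.33, adjusted p = 0.0024) and the X-linked dx (-0.43, adjusted p = 6.96e-04). The median of the 20 was 0.03 in males per the authors' deposited table. Of all male entries 10.3% were lower, with 44.6% of X-linked and 3.39% of autosomal ones. The single female call among the pathway genes was the Notch target E(spl)malpha-BFM, which rose by 0.42 in log2 terms (adjusted p = 0.031) per the authors' deposited table, against 0.09 in males (adjusted p = 0.55).

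Of 15 Hedgehog pathway genes in males, the X-linked shf, which aids spread of the ligand, was lower (-0.58, adjusted p = 5.97e-05) and the kinesin-like gene cos higher (0.28, adjusted p = 0.025) per the authors' deposited table. Of 17 Dpp pathway genes in males, the X-linked brk (-0.30, adjusted p = 0.026) and bi (-0.28, adjusted p = 0.034) were lower and the X-linked sog, which encodes an extracellular antagonist, was higher (0.23, adjusted p = 0.047) per the authors' deposited table. The medians were -0.07 and -0.02 per the authors' deposited table. Of 14 integrin adhesion genes, which join the wing's 2 surfaces, 4 were lower in males per the authors' deposited table: the X-linked integrin genes mys (-0.43) and mew (-0.40) and the autosomal laminin genes LanB2 (-0.27) and LanB1 (-0.24). Their adjusted p lay between 5.68e-04 and 0.037 per the authors' deposited table, and the list's median was -0.03. Over all male entries 10.3% were lower and 5.35% higher. Of X-linked male entries 44.6% were lower and 1.16% higher, and of autosomal ones 3.39% were lower. In females 0 of these 3 lists' genes passed, with medians of 0.06, 0.06 and 0.01 per the authors' deposited table.

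**Figure D2:**
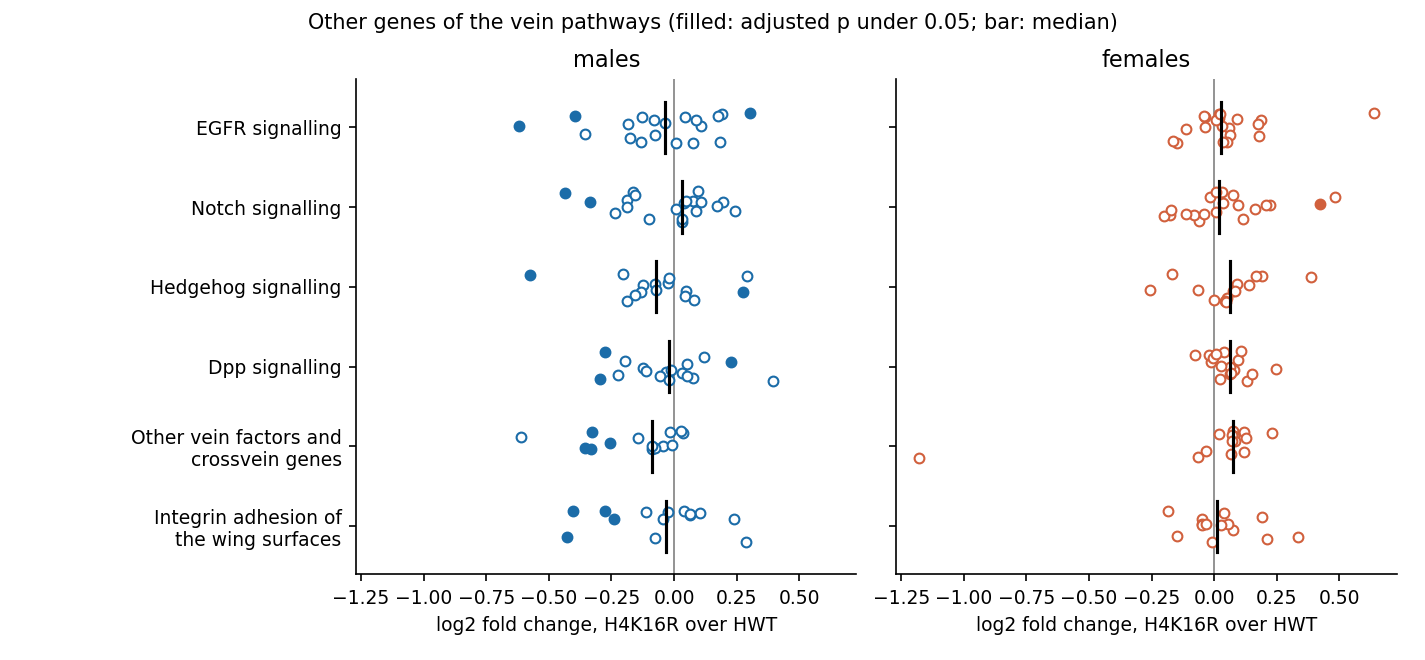
Log2 fold change of H4K16R over HWT (horizontal axis) of the genes of 6 vein pathway lists (vertical axis), with males in the left panel and females in the right. Each point is a gene, filled where its adjusted p is under 0.05, and the bar is the list's median; 18 male and 1 female genes are filled.

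Markers of other tissues were also called in the male comparison, in which 15.6% of all entries were called and 10.3% were lower. Of 8 fat body markers measured, H4K16R males had 7 lower and 0 higher, with a median of -2.52 and a range of -2.88 to 0.33 per the authors' deposited table, and 1 of 8 was lower in females, with a median of -0.88. Adult muscle precursor markers had 2 lower and 1 higher of 12 in males, with a median of -0.11 per the authors' deposited table, and 0 of 12 in females. Hemocyte markers had 0 of 10 called in males, with a median of -0.35, and 0 of 8 in females, with a median of -0.03, per the authors' deposited tables. Neuronal markers had 1 of 10 lower in each sex per the authors' deposited tables, the X-linked elav in males and the X-linked Appl in females. Of all female entries, 0.613% were lower. Disc epithelium markers had 3 of 9 lower in males, with a median of -0.09, and 0 of 10 in females, with a median of 0.08, per the authors' deposited tables. The 3 were ap and the X-linked ct and sd, on a chromosome where 44.6% of male entries were lower, and ap and sd are also in the vein list. The part of other tissues in the values of the vein genes was not tested.

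Few entries within 50 kb of the 7 genes were called, and a larger share within 100 kb. Within 50 kb of any of them, 109 other entries were measured in males and 82 in females. In males 2 were called, both higher, which is 1.83% beside 15.6% of all male entries and 9.48% of autosomal ones per the authors' deposited table. Within 100 kb the share was 5.26%, or 9 of 171 entries, all higher, per the authors' deposited table. Of the 109 entries within 50 kb, 63 lay near vn, and 20 of those had a gene name. The 2 called within 50 kb were noncoding RNAs: sncRNA:CR43603 near vn (0.51, adjusted p = 0.0065) and lncRNA:CR44552 between caup and mirr (2.48, adjusted p = 0.043) per the authors' deposited table. In females lncRNA:CR44552 had 0.64 (adjusted p = 0.78) per the authors' deposited table, and 0 entries were called there. No entry besides the pair was called within 100 kb of kni or knrl in either sex; 11 and 12 others were measured there in males. The next gene beyond kni, CG13252 at 35.2 kb, had -0.23 in males (adjusted p = 0.18) per the authors' deposited table. The next beyond knrl, Rcd2 at 56.7 kb, had 0.54 in males (adjusted p = 0.29) per the authors' deposited table.

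All 7 genes lay in regions of earlier replication than the autosomal median in each of the 7 timing profiles. Timing is given as log2(S/G1) in the 100 kb window centred nearest the gene, except in yw. There is 1 value per group with no spread between replicates. The yw values come in bins of 10 kb but are labelled 100 kb, so whether they were smoothed over 100 kb is not known. The values of the 7 genes ran from 0.060 to 0.118 in H4K16R females, from 0.040 to 0.070 in HWT females of the same table, from 0.042 to 0.109 in H4K16R males and from 0.047 to 0.117 in HWT males. They ran from 0.079 to 0.136 in H3K9R females, from 0.090 to 0.132 in HWT females of that table and from 0.050 to 0.080 in yw females. The autosomal medians of the same 7 profiles lay between 0.003 and 0.052, and the SDs over windows between 0.094 and 0.137. The tables were normalised separately, so levels compare only within a table.

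**Figure D3:**
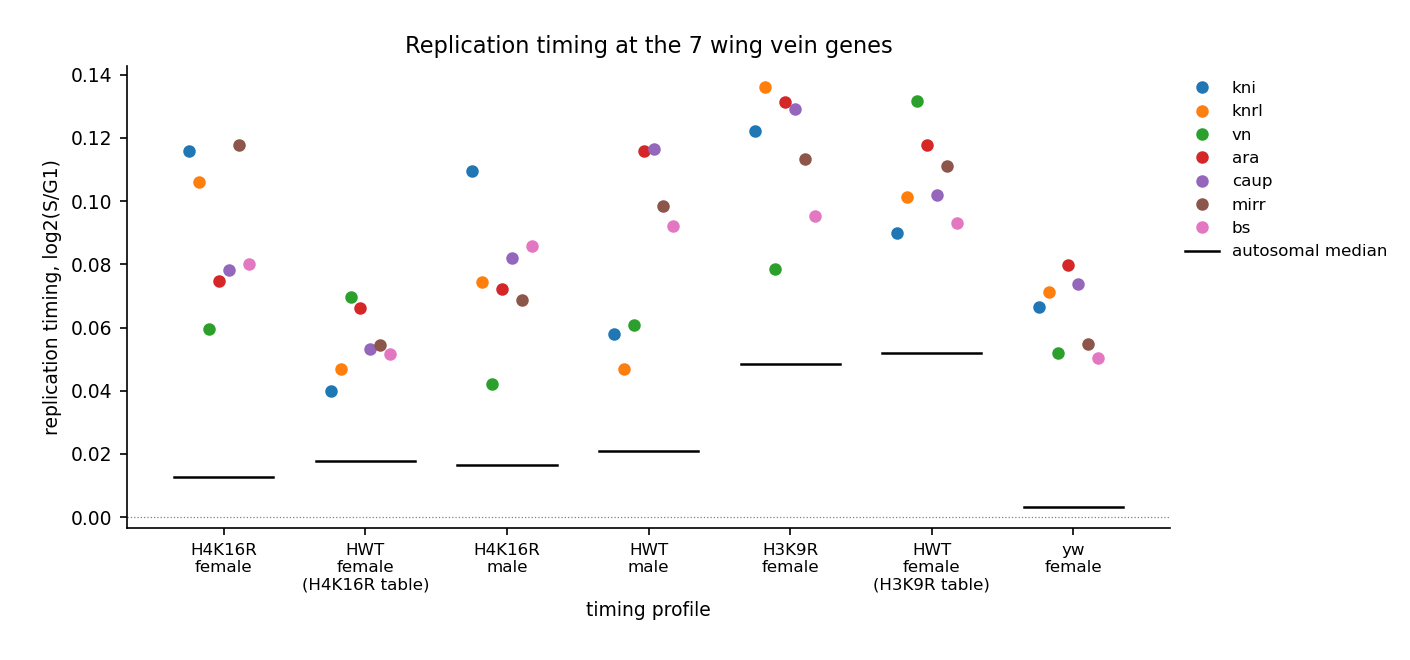
Replication timing as log2(S/G1) (vertical axis) at the 7 genes in the 7 deposited profiles (horizontal axis), with each mutant left of its HWT profile and a black bar for the autosomal median. All points lie above 0 and above the bar of their profile; in HWT males kni (0.058) and knrl (0.047) are the lowest points.

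The order of the genes was not the same across profiles. In H4K16R males kni was the earliest of the 7, at 0.109, and in H4K16R females only mirr was earlier, with kni at 0.116 and mirr at 0.118. In both profiles about the same share of autosomal windows was later than kni, 95.1% in H4K16R males and 95.3% in H4K16R females. In HWT males the kni and knrl windows were instead the latest of the 7, at 0.058 and 0.047, and 68.4% and 61.9% of autosomal windows were later. In HWT females of the H4K16R table they were again the lowest, at 0.040 and 0.047. In HWT females of the H3K9R table kni was the lowest, at 0.090, but knrl, at 0.101, lay above bs, at 0.093. In HWT males caup and ara were the earliest, at 0.117 and 0.116. In yw females kni and knrl, at 0.066 and 0.071, lay above bs, vn and mirr and below caup and ara, over a range from 0.050 at bs to 0.080 at ara. Without a spread between replicates, none of these orders can be called different from another.

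No vein gene reached a timing difference of 0.1 on the log2 scale in any of the 3 mutant comparisons, a size reached by 2.7% of autosomal windows for H4K16R in females, 1.47% for H4K16R in males and 1.79% for H3K9R in females. For H4K16R minus HWT in females, 44.8% of autosomal windows lay above 0. Windows of several of the genes overlap, so their signs are not independent. The values were above 0 at 6 of the 7 genes. The highest was 0.076 at kni (0.116 in H4K16R against 0.040 in HWT), and 97.3% of windows had a lower difference. It was 0.063 at mirr and 0.059 at knrl, and the other 4 ran from -0.010 at vn to 0.029 at bs. At the threshold of 0.05, 3 of the 7 were past it, beside 24% of windows.

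For H4K16R minus HWT in males, 53.5% of autosomal windows lay above 0. Of the 7 genes, only kni and knrl had positive differences. They were 0.051 at kni (0.109 in H4K16R against 0.058 in HWT) and 0.028 at knrl (0.075 in H4K16R against 0.047 in HWT). The other 5 were negative, the lowest being -0.044 at ara (0.072 in H4K16R against 0.116 in HWT) and -0.035 at caup (0.082 in H4K16R against 0.117 in HWT). A lower difference was found in 7.06% of windows for ara and 12.1% for caup. At the threshold of 0.05, 1 of the 7 was past it, beside 13.8% of windows.

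For H3K9R minus HWT in females, knrl and vn lay at the ends. This comparison and that of H4K16R in females both use HWT females, so they are not independent. The difference was 0.035 at knrl (0.136 in H3K9R against 0.101 in HWT) and -0.053 at vn (0.079 in H3K9R against 0.132 in HWT). It was 0.032 at kni, and the other 4 lay between 0.002 and 0.027. At the threshold of 0.05, 1 of the 7, vn, was past it, beside 18.9% of windows. With the median offset of 0.038 between the HWT female profiles of the 2 tables removed, the HWT values of the 7 genes were higher by 0.004 to 0.024 in the H3K9R table. The value of 0.024 was at vn. Over all windows the difference between these HWT profiles had an SD of 0.033, beside 0.040 for H3K9R minus HWT. The labels list no second group of HWT female Repli-seq libraries, so these profiles are not separate measurements. RNA was not measured in H3K9R discs here.

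The paired neighbours do not give independent timing values. The windows of kni and knrl share 20 kb, those of ara and caup share 70 kb and those of caup and mirr share 20 kb. Within 200 kb of kni, the H4K16R minus HWT difference ran from -0.008 to 0.122 in females and from -0.020 to 0.053 in males. These ranges include the window of kni itself and windows that overlap it. The highest female value near kni lay 196.1 kb to its higher-coordinate side.

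**Figure D4:**
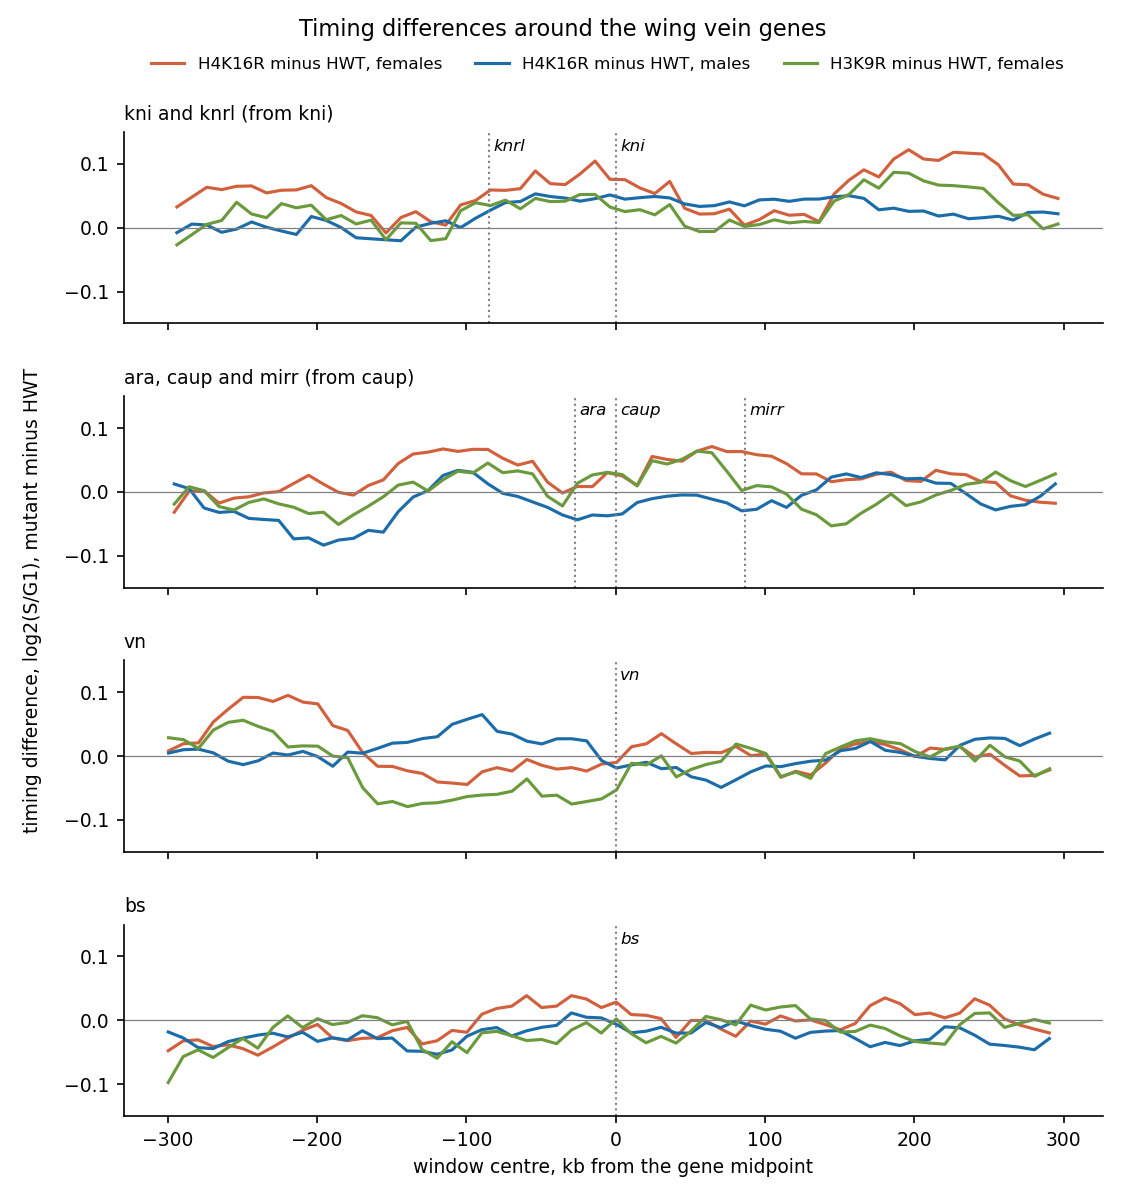
Timing difference, mutant minus HWT in log2(S/G1) (vertical axis), in 100 kb windows by distance of the window's centre from a gene midpoint in kb (horizontal axis), for 4 loci; lines stand for H4K16R in females, H4K16R in males and H3K9R in females. At kni the 3 lines lie at 0.076, 0.051 and 0.032, and at ara the male H4K16R line lies at -0.044.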

How the data were processed

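Libraries were grouped by their titles: 12 for RNA and 18 for Repli-seq. RNA libraries were strand-specific and depleted of ribosomal RNA, per the labels' protocols. The submitters' processing notes name edgeR, limma, bedtools, TopHat, Bowtie2 2.3.2, SAMtools 1.6 and Cufflinks 2.2.1 with the build dm6, per the labels and without a role for each. For each sex the authors deposited an edgeR table whose columns, per the file headers, are the log2 fold change and the adjusted p-value of an interval. The authors deposited timing as a linear S/G1 ratio in the H4K16R female table, converted here to log2, and as values centred near 0 in the others, read as log2. For the H3K9R table this base was checked: its HWT profile had a slope of 0.995 on the log2 HWT profile of the H4K16R table and 1.44 on the natural log. The male and yw bases are not given in the sources used here.

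Intervals were named by the RefSeq gene of Release 6 with the best reciprocal overlap above 0.9; 9556 of 11505 male and 9337 of 10775 female entries got a name, and the list genes were matched by symbol or unique synonym. Taking the adjustment as Benjamini-Hochberg, unadjusted p-values were obtained by multiplying each adjusted p by its rank and dividing by the entries tested, and standard errors from fold change and recovered p; ties make both upper bounds. Male and female effects were compared with a z test adjusted over all 8846 shared genes. The steps were tested on simulated data. Timing differences have no test. Planned comparisons of promoter windows and proteins were not run, since no sequence was used here. One further vein gene of the group is not reported here and entered no count. The named genes are the 7 members, called members of the lists (up to 4 per direction), the nearest neighbours, and genes described for their place in the pathway. The members, lists and comparisons were chosen with earlier results of these data known. Computation used scipy 1.17.1, pandas 2.3.3 and numpy 2.4.6 under Python 3.11.15, with figures by matplotlib 3.10.9.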

Additional observations from a re-analysis of the deposited data

Results flagged for a closer look

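The H4K16R effect on knrl differed between the sexes by the z test of the difference. The log2 fold change of H4K16R over HWT was -0.35 in males (adjusted p = 0.020 by edgeR) and 0.16 in females (adjusted p = 0.62 by edgeR) in the authors' deposited tables, and the male minus female difference was -0.51 (adjusted p = 0.024 over 8846 genes). Its neighbour kni had -0.49 by the same test (adjusted p = 0.074) and did not pass.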

How the results depend on the processing

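No paired analysis was possible because each gene has 1 RNA fold change and each group 1 timing profile; for the same reason no replicate could be left out. Of the 7 genes, 2 were called in males, and 0 with an adjusted p under 0.01, with Holm adjustment or with an absolute log2 fold change of at least 0.5; each of these is a stricter rule by construction. The 2 were called again with the autosomal median subtracted and with a reciprocal overlap above 0.5, but neither setting checks these calls. Both genes match their intervals with an overlap of 1, so the looser overlap gives the same values. Subtracting the positive male median moves their negative values further from 0. In females 0 were called under each of these settings. The sex difference was called for 1 gene, for 0 with an adjusted p under 0.01 or with Holm adjustment, and for 2, knrl and kni, with the autosomal medians subtracted, which lowers the male values by 0.08. Among the pathway genes, an adjusted p under 0.01 left 9 called in males, against 18, and 0 in females, against 1. The share of all entries under 0.01 was not computed, so these counts cannot be set against it. At a timing difference of 0.05 in place of 0.1, 5 of 21 values were past the threshold, against 0; none was at 0.2, with mean windows over the gene body, or with profiles centred or scaled. Those last 3 settings moved single timing differences by at most 0.022 and changed the sign of 3 small ones, 2 of bs and 1 of ara. The comparison of neighbouring pairs by their orientation was not run, since strand was not in the tables used here. Depth is unknown, so whether a wide interval reflects few reads cannot be seen.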

Other observations

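Beyond 50 kb from ara lay a run of genes that were higher in H4K16R males, named here after their values were seen. For males, per the authors' deposited table, Gcn5, which encodes a histone acetyltransferase, had a log2 fold change of 0.88 (adjusted p = 1.59e-05 by edgeR). The telomere-capping gene ver had 0.85 (adjusted p = 0.016), CG10638 0.89 (adjusted p = 3.93e-05) and the translation initiation gene eIF2beta 0.45 (adjusted p = 4.72e-04), again by the authors' deposited table. The interval of ver overlaps those of Gcn5 and eIF2beta, and asRNA:CR43868 (0.80) overlaps CG10638, so their values are not independent. Within 100 kb of the 7 genes, 9 of 171 other entries were called in males, all higher, which is 5.26% beside 9.48% of autosomal and 15.6% of all male entries per the authors' deposited table. In females 0 of 141 were called per the authors' deposited table.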
